A study of Rattus norvegicus with 12 samples.

Results

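The transcriptome of vehicle-treated hippocampal neuron cultures was described from the 4 arrays labelled HPneuron_DMSO, which are 4 of the 12 samples of the series and are called CTL1 to CTL4. The cultures were dissociated from the hippocampus of Sprague-Dawley rat embryos at E18.5, grown to 10 to 13 days in vitro (DIV) and kept for 48 h in vehicle alone. The labels give the vehicle as 0.1% DMSO, whereas the study lists both a water and a DMSO vehicle and names water for the array cultures, and which was used for these arrays could not be settled. The other 8 samples, treated for 48 h with tetrodotoxin (TTX, 0.5 to 1 μM) or with bicuculline (BC, 20 μM), entered the normalization and a comparison of slides, and no treatment was contrasted. No source used here says that the 4 RNA samples came from separate cultures or animals, so their spread may be technical. The cells were neither sorted nor separated, and the RNA is that of the whole dish.

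Hippocampal cultures made before birth hold pyramidal neurons, which release glutamate, interneurons, which release GABA, and the glia and progenitors that were plated with them. A neuron's response to a transmitter depends on which members of each receptor family it makes, and its firing depends on which pore-forming and auxiliary channel subunits it makes. Many of these families have members that are used mainly in muscle, retina, ear or kidney, so a list of members read and not read describes the equipment of the dish. Neuropeptides are cut from large precursors inside secretory granules, by convertases and carboxypeptidases that the granule carries.

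Each gene was read by a 60-base probe, or by several, and the brightest probe stood for the gene. The probes below are shown because the identity of the culture and the limits of an absent signal both rest on them. They are written 5′ to 3′ in lower case as the array files give them, and positions are on the rn4 build with the strand given by the order of the coordinates. The first set reads a neuronal RNA-binding protein (RBFOX3), an interneuron peptide (SST), an astrocyte filament (GFAP) and a microglial calcium-binding protein (AIF1).
RBFOX3 (chr10:108500430-108501044, minus strand, across a gap): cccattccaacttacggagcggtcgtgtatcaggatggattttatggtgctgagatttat
SST (chr11:79126027-79126086, plus strand): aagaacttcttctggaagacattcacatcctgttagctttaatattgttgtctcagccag
GFAP (chr10:92060835-92060894, minus strand): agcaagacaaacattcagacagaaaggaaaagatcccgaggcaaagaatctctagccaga
AIF1 (chr20:3715562-3716143, plus strand, across a gap): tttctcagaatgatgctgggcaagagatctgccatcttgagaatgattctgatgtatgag
The mean log2 signals of these probes were 14.29 ± 0.05 for RBFOX3, 17.26 ± 0.13 for SST, 11.45 ± 0.22 for GFAP and 1.34 ± 0.14 for AIF1 (SD, n = 4 arrays for these and all later values). The first 3 were well above background on all 4 arrays and AIF1 was on none.

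The second set holds pairs of probes that are annotated to the same gene and read differently. GJA1 is the main astrocyte connexin, KCNJ6 a G-protein-gated inward rectifier and KCNA1 an axonal K+ channel.
GJA1, first probe (chr20:35422026-35422085, plus strand): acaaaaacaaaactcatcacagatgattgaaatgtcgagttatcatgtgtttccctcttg
GJA1, second probe (chr20:35421821-35421880, plus strand): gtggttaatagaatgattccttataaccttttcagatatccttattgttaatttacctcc
KCNJ6, first probe (chr11:35025584-35025643, minus strand): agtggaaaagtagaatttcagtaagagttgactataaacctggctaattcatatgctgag
KCNJ6, second probe (chr11:35115117-35115176, minus strand): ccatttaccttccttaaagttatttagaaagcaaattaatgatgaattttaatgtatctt
KCNA1, first probe (chr4:163012003-163012062, minus strand): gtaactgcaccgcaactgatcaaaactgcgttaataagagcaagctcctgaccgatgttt
KCNA1, second probe (chr4:163011052-163011111, minus strand): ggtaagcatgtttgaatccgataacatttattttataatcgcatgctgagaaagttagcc
The GJA1 probes read 12.93 and 1.24, the KCNJ6 probes 10.23 and 1.46 and the KCNA1 probes 14.47 and 8.42. The dimmer probes of GJA1 and KCNJ6 failed the background criterion on every array, while the brighter ones passed it on all 4. Among the 151 listed genes with several probes, all probes were well above background on 4 arrays in 110, all were so on 0 arrays in 8, and 18 genes (11.9%) had a probe on 4 arrays beside another on 0. The median range between probes of a gene was 2.19 on the log2 scale and the largest was 11.69. A missing signal is therefore a statement on the probes used, and the order of signals between genes is a description of probes and not an order of transcript abundance.

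A gene was called detected when the scanner software marked its brightest probe as well above background on all 4 arrays. Of 15289 genes with a name in RefSeq, 11865 (77.6%) were detected, 898 (5.87%) were marked on 1 to 3 arrays and 2526 (16.5%) on none. Over all 35699 names on the array, most of the remainder being transcripts known only by an accession, 71.1% were detected. The share of the 41012 probes marked ran from 74.1 to 77.5% per array. Of the 153 negative control spots, 0 or 1 were marked on each array, and 8 of the 10 spike-in transcripts were marked at all of their spots. The median log2 signal was 8.38 over the RefSeq-named genes, 9.92 over the detected and 1.52 over those marked on no array.

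Detection alone did not separate brain genes from others. Of 35 genes of other organs, such as liver, pancreas, heart, testis, pituitary, kidney and lung, 22 were detected and 11 were marked on no array. Their median log2 signal was 5.26. The brightest were MYH6, a heart myosin, at 11.88 ± 0.22, AQP2, a kidney water channel, at 10.43 ± 0.60 and TNNI3, a heart troponin, at 8.42 ± 0.42. The 90th percentile of their signals was 7.17, and a gene above it is called bright below. By that measure 8920 RefSeq-named genes (58.3%) were bright, and this level was chosen after the signals were seen. Between the floor and 7.17 a detected gene lay where most genes of other organs also lay.

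The lists described here hold 687 genes, of which 655 had a probe and the other 32 were not analysed here. Of the 655, 546 (83.4%) were detected, 31 were marked on 1 to 3 arrays and 78 on none, beside the 77.6% of all RefSeq-named genes, and 372 (56.8%) were bright, beside 58.3%. Of the 78 genes on no vehicle array, 54 were also on none of the 8 arrays of treated cultures, and the other 24 were on 1 to 4 of them. A single probe stood for 70 of the 78. Since the lists were written with results of these data known, a list's share is a description of its members. Each list's counts below are to be read beside the 77.6% detected and 58.3% bright of all RefSeq-named genes.

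**Figure D1:**
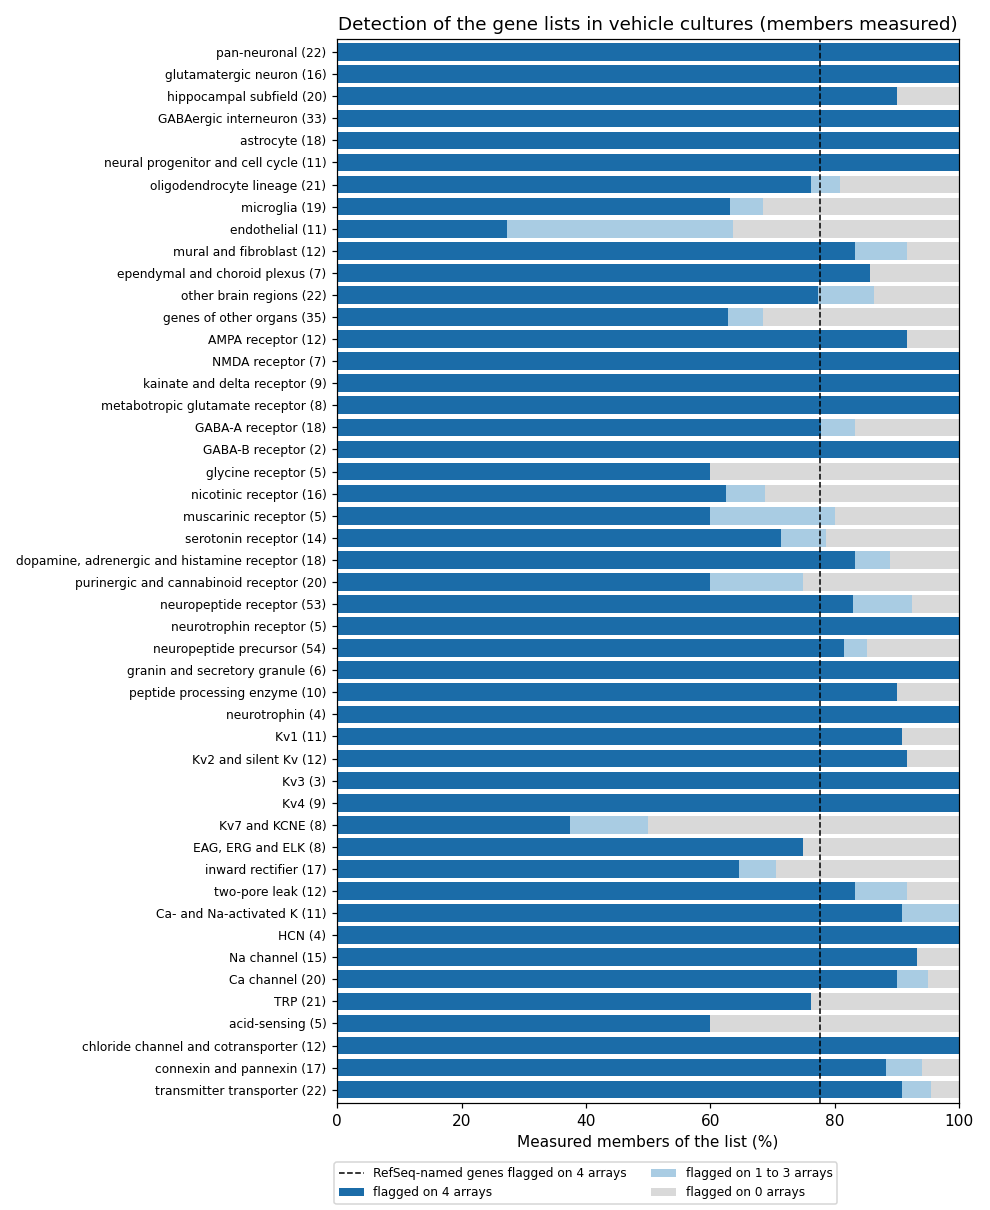
Detection of each gene list in the 4 vehicle arrays, as the percent of its measured members (number in brackets) marked well above background on 4, on 1 to 3 and on 0 arrays. The dashed line is the share of RefSeq-named genes detected, 77.6%, and the endothelial list (27.3%) and the Kv7 and KCNE list (37.5%) have the lowest shares.

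Genes of growing neurons and of basic cell upkeep were among the brightest. In order of signal, they included NNAT, UBB, CBARP, TUBB2B, PEBP1, COX6A1, RPLP1, GABARAPL1 and SLC22A17. NNAT, a small membrane protein of developing neurons, read 18.83, 18.83, 18.83 and 18.69 on CTL1 to CTL4, and CBARP, a regulator of Ca2+ channel β subunits, read 18.77, 18.51, 18.41 and 18.41. Tubulins were represented by TUBB2B, TUBB5 and TUBB4B, ubiquitin by UBB, and ribosomes by RPLP1 and RPS2. Further names were AP2M1, TMSB4X, ZWINT, MAPK8IP1, ARF3, TPT1, PTGS2, ATP5ME, TKT, PGAM1, FABP5 and NELL2. PTGS2, the inducible cyclooxygenase, which active forebrain neurons also make, ran from 17.93 to 18.02 and was thus steady between arrays. The lowest mean of these 25 was 17.84, that of NELL2, a secreted protein of neurons.

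All 22 pan-neuronal genes were detected and bright, with a median log2 signal of 14.95. The brightest were RTN1, a reticulon of the neuronal endoplasmic reticulum, at 17.48 ± 0.06, GAP43, a growth cone protein, at 17.30 ± 0.05, NEFM, a neurofilament subunit, at 16.93 ± 0.05 and STMN2, a microtubule regulator of growing axons, at 16.80 ± 0.08. RBFOX3, which encodes the nuclear antigen NeuN, read 14.23, 14.33, 14.33 and 14.28. MAP2, the dendritic microtubule protein, read 10.45, 10.14, 11.04 and 11.24, so that CTL3 and CTL4 lay above CTL1 and CTL2. DCX, a marker of young neurons, read 14.73 ± 0.12 alongside the mature synaptic gene SNAP25 at 15.59 ± 0.12.

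All 16 measured glutamatergic genes were detected and 15 were bright. SLC17A7, the vesicular glutamate transporter of most adult cortical and hippocampal pyramidal cells, read 11.49, 11.86, 11.14 and 11.13. SLC17A6, the transporter more typical of young and subcortical neurons, read 12.31, 12.57, 12.57 and 12.44. SLC17A8, the third vesicular form, read 6.53 ± 0.25, below the bright level. Transcription factors of pyramidal neurons were bright, with NEUROD6 at 13.72 ± 0.12 and NEUROD2 at 13.60 ± 0.19.

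Genes used to tell the fields of the hippocampus apart were detected in 18 of 20 cases. LHX2, a regulator of hippocampal patterning, read 14.12 ± 0.05 and ZBTB20, a factor of all fields, 10.61 ± 0.33. Of the dentate genes, the calcium buffer CALB1 read 13.84 ± 0.08, but it is also made by interneurons and by CA1, and PROX1, the factor that defines granule cells, read 4.83, 4.45, 4.26 and 4.35, below the bright level. The dentate genes DSP and TDO2 also lay below it, at 4.17 ± 0.35 and 5.07 ± 0.11, and LCT was on no array. Of the CA1 genes WFS1 read 10.93 ± 0.32 and FIBCD1, below the bright level, 5.92 ± 0.38. The CA2 genes PCP4 and RGS14 read 16.78 ± 0.10 and 11.01 ± 0.14. Of the CA3 genes NECTIN3 and GRIK4 read 11.65 ± 0.18 and 11.17 ± 0.03, and IYD lay below the bright level at 4.04 ± 0.41. Several of these genes have other sources in a dish that holds all fields, and CACNG5, a CA2 gene, was on no array.

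All 33 measured interneuron genes were detected and 23 were bright. The GABA vesicle transporter SLC32A1 read 15.22, 15.25, 15.27 and 15.32. GAD1, a GABA-synthesizing enzyme, read 12.03, 12.15, 12.12 and 12.05 with its brightest probe, and its other probes read 9.54 and 8.65. GAD2, the other such enzyme, read 10.63, 10.35, 10.53 and 10.29. These genes were steady, with SDs of at most 0.16.

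The peptides of interneurons stood at very different places in the signal range. SST, of dendrite-targeting interneurons, read 17.12, 17.40, 17.34 and 17.17, in the 99.7th percentile of all names. NPY read 16.65, 16.89, 16.96 and 16.74, CCK 15.49 ± 0.18, and CORT, the sister peptide of SST, 11.70, 12.13, 12.07 and 11.76. VIP, of interneurons that contact other interneurons, read 11.01, 11.73, 11.61 and 11.91. PVALB, the calcium buffer of fast-spiking cells, which appears late in development, read 6.62, 6.43, 6.81 and 6.08, below the bright level on each array. Factors of the medial ganglionic eminence, where SST and PVALB cells are born, were likewise detected but not bright, with LHX6 at 6.24 ± 0.20, SOX6 at 5.77 ± 0.15 and NKX2-1 at 5.40 ± 0.29.

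All 18 astrocyte genes were detected, 16 of them bright, with a median of 11.08. NDRG2 read 17.27 ± 0.21, SPARCL1 16.76 ± 0.19, the glutamate transporter SLC1A3 16.01 ± 0.13 and the radial glial lipid carrier FABP7 15.98 ± 0.12. GFAP read 11.53, 11.13, 11.64 and 11.50, and the water channel AQP4 8.79, 8.49, 8.69 and 8.75. S100B, a calcium-binding protein of mature astrocytes, read 8.75, 8.09, 9.95 and 10.01, with CTL3 and CTL4 above CTL1 and CTL2. Of the 11 progenitor and cell cycle genes with a probe all were detected and 9 were bright, among them VIM at 12.74 ± 0.21, NES at 12.09 ± 0.29, SOX2 at 11.83 ± 0.22 and the mitotic kinase CDK1 at 9.22 ± 0.26. TOP2A, the topoisomerase of dividing cells, and PROM1 lay below the bright level at 7.08 ± 0.36 and 6.04 ± 0.18.

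The oligodendrocyte lineage was read in part. Of 21 genes, 16 were detected, 8 were bright and 4 were on no array. All 6 measured precursor genes were detected and 3 were bright. OLIG1, a factor of precursors, read 15.50, 14.75, 15.16 and 15.36, CSPG4 8.49 ± 0.29 and NKX2-2 7.18 ± 0.32, just above the bright level. Below it lay SOX10 at 6.92 ± 0.16, OLIG2, the partner of OLIG1, at 6.27 ± 0.12 and the precursor receptor PDGFRA at 6.12 ± 0.17. The myelin genes CNP and MBP were bright at 10.49 ± 0.23 and 8.96 ± 0.19, and the other MBP probe read 5.25, below the bright level. ENPP6 and UGT8, expressed as precursors differentiate, and ERMN and OPALIN, of mature myelinating cells, were on no array, and MYRF, the factor that drives myelin genes, read 3.93 ± 0.30.

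Among the cell type lists, the endothelial (27.3%) and microglial (63.2%) had the lowest shares of detected genes. Of 19 microglial genes, 12 were detected, 5 bright and 6 on no array, with a median of 5.52. AIF1 read 1.26, 1.27, 1.27 and 1.55, and CX3CR1, the fractalkine receptor, read 2.13, 1.26, 1.62 and 1.68. TMEM119, ITGAM, SPI1 and C1QA were also on no array. The bright members included LYZ2 at 10.39 ± 0.35, LAPTM5 at 8.83 ± 0.16, CD68 at 8.46 ± 0.15 and CD14 at 7.46 ± 0.08. P2RY12, a receptor of resting microglia, was detected at 4.75 ± 0.17, in the range of genes of other organs. Of 11 endothelial genes, 3 were detected and 1 was bright, KDR, the VEGF receptor, at 11.25, 11.31, 12.26 and 11.91. PECAM1, TEK, SLCO1A4 and EMCN were on no array. In RNA of a whole dish, fewer cells of a type and less RNA per cell cannot be told apart.

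Other non-neural genes were mixed. Of 12 mural and fibroblast genes 10 were detected, led by the matrix genes LUM at 12.35 ± 0.19 and DCN at 11.44 ± 0.08, while KCNJ8, of pericytes, was on no array. Of 7 ependymal and choroid plexus genes 6 were detected, led by the ciliary factor FOXJ1 at 10.59 ± 0.20 and by TTR at 9.27 ± 0.17, and KL was on no array. Of 22 genes of other brain regions 17 were detected but 4 were bright, POMC at 10.71 ± 0.05, HCRT at 8.75 ± 0.52, AGRP at 7.77 ± 0.21 and PAX2 at 7.75 ± 0.52. The dopamine transporter SLC6A3, the hypothalamic factor SIM1 and the hindbrain factor HOXA2 were on no array.

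**Figure D2:**
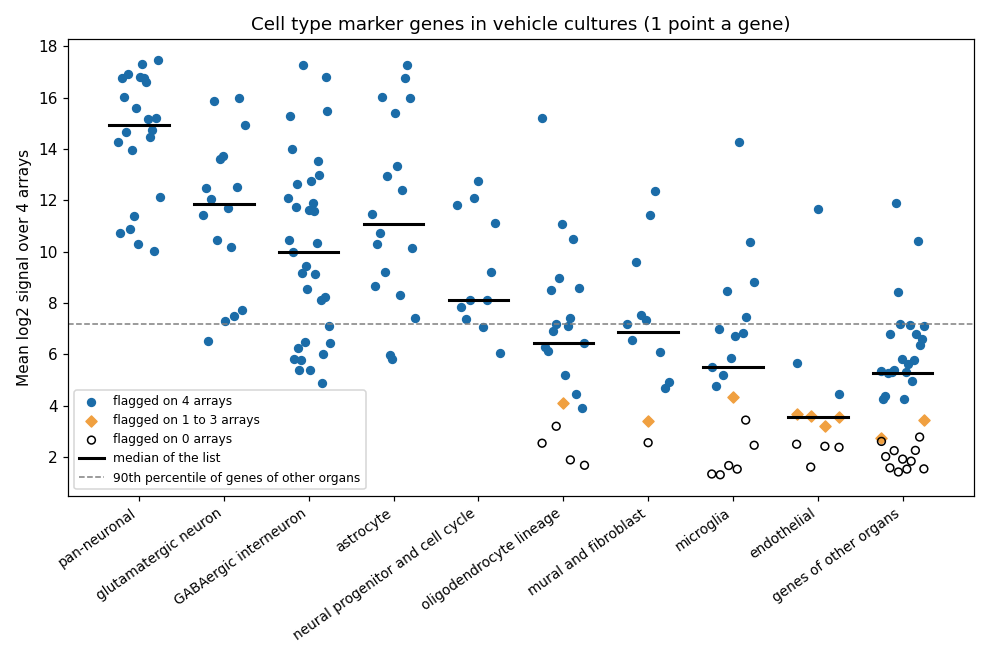
Mean log2 signal over 4 vehicle arrays of each marker gene (1 point a gene), by cell type list, with the median of each list as a black line and the 90th percentile of genes of other organs, 7.17, dashed. All 22 pan-neuronal genes lie above the dashed line, and 5 of 19 microglial and 1 of 11 endothelial genes do.

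Glutamate receptors of every class were read. AMPA receptors carry fast excitation, and all 4 pore subunits were detected, with GRIA2, which makes the channel impermeable to calcium, at 13.85, 13.98, 13.72 and 13.91. GRIA4 read 11.92 ± 0.16, GRIA1 11.58 ± 0.09 and GRIA3 8.30 ± 0.04. Of the auxiliary subunits that traffic and gate them, CNIH2 read 14.18 ± 0.12 and CACNG2, also called stargazin, 12.26 ± 0.07. The hippocampal form CACNG8 read 9.66 ± 0.36, CACNG3 10.12 ± 0.15, GSG1L 9.20 ± 0.28 and CACNG7 8.53 ± 0.16, while CACNG4 lay at 5.66 ± 0.20 and CACNG5 was on no array.

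NMDA receptors pair the obligatory subunit GRIN1 with GRIN2 or GRIN3 subunits that set their kinetics, and all 7 were detected. GRIN1 read 14.28 ± 0.25 with its brightest probe and 7.92 with the other. GRIN2A, typical of mature synapses, read 9.16, 9.20, 8.76 and 8.92 with its brightest probe and 6.24 with the other. GRIN2B, typical of young synapses, had 1 probe and read 9.10, 9.0, 8.56 and 8.69. These signals are of different probes, so the ratio of the subunits is not given by them. GRIN2D, a subunit of interneurons in the hippocampus, read 15.01, 15.67, 16.54 and 16.01 and varied more than the others, with CTL3 and CTL4 above CTL1 and CTL2. GRIN2C read 10.29 ± 0.31 and the glycine-binding GRIN3B and GRIN3A read 7.97 ± 0.20 and 6.91 ± 0.12.

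Kainate receptor genes were all detected. The high-affinity subunits GRIK5 and GRIK4 read 12.92 ± 0.25 and 11.17 ± 0.03, and GRIK2, GRIK1 and GRIK3 read 10.59 ± 0.25, 8.77 ± 0.19 and 5.60 ± 0.29, the last below the bright level. Their auxiliary subunits NETO2 and NETO1 read 11.98 ± 0.08 and 10.30 ± 0.11, and the delta receptor GRID1, of a family that organizes synapses, read 8.65 ± 0.15. All 8 metabotropic receptors were detected and bright. GRM5, which is coupled to phospholipase C, read 9.40, 9.40, 8.84 and 9.10. The inhibitory receptors GRM2, GRM3, GRM4, GRM7 and GRM8 ranged from 7.28 for GRM8 to 10.99 for GRM2. GRM6, known from the retina, read 8.16 ± 0.15, and a further GRM6 probe was on no array.

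GABA-A receptors are pentamers, usually of α, β and γ or δ subunits. Of 18 measured subunits 14 were detected, 9 bright, and 3 on no array. Of the α subunits GABRA5, the tonic subunit of hippocampal pyramidal cells, read 11.94, 12.34, 11.86 and 11.91, GABRA4 8.84 ± 0.07 and GABRA3 6.41 ± 0.13. GABRA6, which is known from cerebellar granule cells, was on no array, and GABRA2 was not analysed here. Of the β subunits GABRB1 read 13.94 ± 0.10 and GABRB2 6.17 ± 0.13, and of the γ subunits GABRG1 read 8.94 ± 0.14 and GABRG3 4.82 ± 0.17.

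The extrasynaptic subunit GABRD read 11.26, 11.11, 11.26 and 11.14. GABRQ, the θ subunit, had the highest mean of the family and was the least steady, at 13.66, 13.82, 15.55 and 15.54, with CTL3 and CTL4 clearly apart from CTL1 and CTL2. On CTL1 and CTL2 it lay below GABRB1, which read 13.92 and 14.08 there. GABRE and GABRP were on no array, and the ρ subunits GABRR2 and GABRR3, known from the retina, were detected at 5.01 ± 0.31 and 4.23 ± 0.28 while GABRR1 was on 2 arrays. Both subunits of the metabotropic GABA-B receptor were bright, GABBR2 at 14.83 ± 0.04 and GABBR1 at 13.96 ± 0.36. Of the glycine receptor genes, the fetal subunit GLRA2 read 11.41, 11.62, 11.62 and 11.40 and the β subunit GLRB 10.45 ± 0.19. GLRA1, the adult spinal subunit, read 5.41, 5.28, 7.30 and 7.10, and GLRA3 and GLRA4 were on no array.

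**Figure D3:**
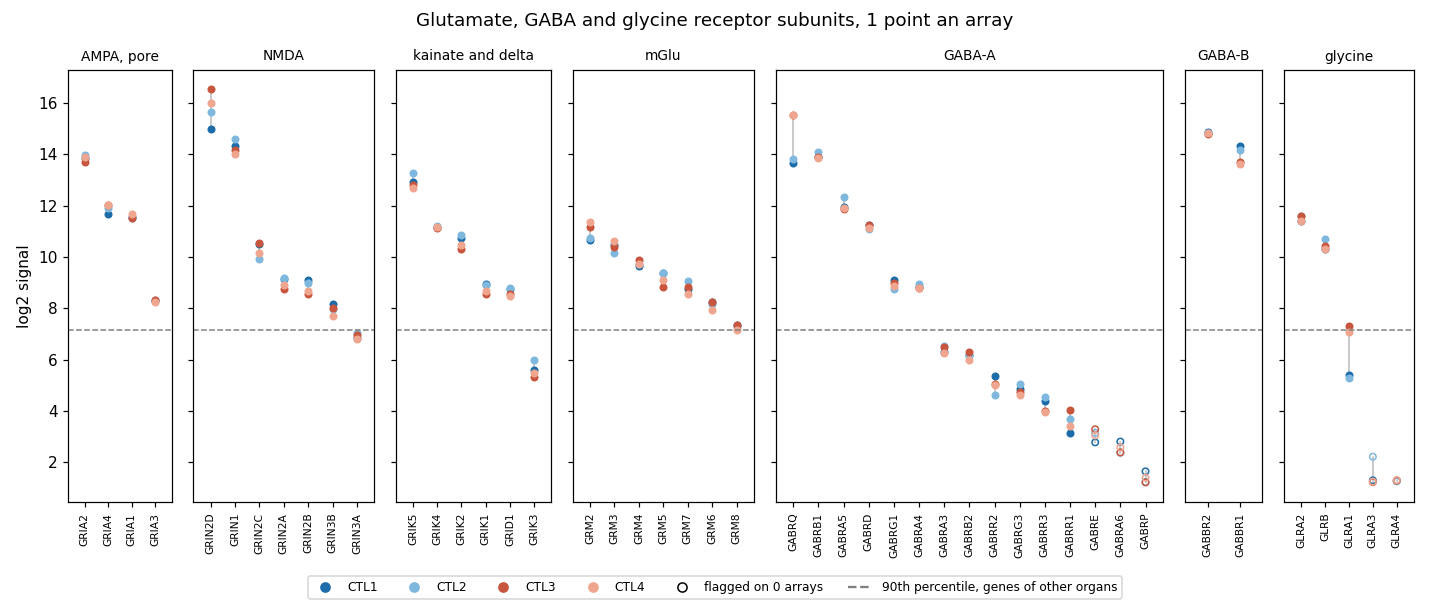
log2 signal of glutamate, GABA and glycine receptor subunits on each of the 4 vehicle arrays (1 point an array), for the members shown, in order of mean signal within each family, with open points for genes on no array and a dashed line at 7.17. GABRQ spans 13.66 to 15.55 and GRIN2D 15.01 to 16.54, while most subunits lie within a narrow band.

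Of 16 nicotinic subunits, which bind acetylcholine, 10 were detected, 4 bright and 5 on no array. The bright subunits were CHRNA7, known for its abundance in the hippocampus, at 11.93 ± 0.11, CHRNA4 at 9.95 ± 0.19, CHRNA5 at 8.54 ± 0.21 and CHRNB2 at 7.79 ± 0.18. CHRNA9 and CHRNA10 of the inner ear and CHRNA6 and CHRNB3 of dopamine neurons were on no array. Of the muscle subunits CHRND was on no array, while CHRNA1, CHRNB1, CHRNE and CHRNG were detected at 4.42 to 5.84, below the bright level. Of the 5 muscarinic receptors, CHRM3 read 14.45, 14.28, 13.41 and 13.87, CHRM4 12.54 ± 0.18 and CHRM1 7.88 ± 0.37, whereas CHRM2 was on 2 arrays and CHRM5 on none.

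Of 14 serotonin receptors 10 (71.4%) were detected and 3 (21.4%) were bright. HTR7, coupled to cyclic AMP, read 10.85, 11.02, 10.87 and 10.64, HTR3A, the ion channel of caudal interneurons, 9.13 ± 0.19 and HTR2A 7.85 ± 0.31. Only the brightest HTR2A probe was bright. Another read 4.57, and the remaining ones, at 2.37 and 1.95, were on no array. HTR3B, the partner subunit of HTR3A, read 6.17, 5.43, 7.57 and 8.06. HTR1A, the inhibitory receptor of pyramidal neurons, was detected at 6.68 ± 0.30, and HTR1B, HTR1F and HTR2B were on no array.

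All 5 dopamine receptors were detected, and of these DRD5 alone had a mean above the bright level. It read 7.04, 7.14, 7.75 and 8.07, below that level on CTL1 and CTL2 and above it on CTL3 and CTL4. DRD1 read 4.22 ± 0.15. Of 9 adrenergic receptors ADRA2C at 12.10 ± 0.30, ADRA1B at 10.82 ± 0.22, ADRA1D at 10.40 ± 0.19 and ADRA2A at 10.23 ± 0.26 were the brightest, and ADRA1A was on no array. The other ADRA1B probes read 6.24 and 5.99, below the bright level. ADRB1 read 7.40 ± 0.14. Of the histamine receptors the autoreceptor HRH3 read 10.00 ± 0.17 and HRH2 was on no array.

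Among purine and cannabinoid receptors, 12 of 20 (60.0%) were detected and 6 (30.0%) bright. The adenosine receptor ADORA1, which inhibits transmitter release, read 12.95 ± 0.15, ADORA2B 8.32 ± 0.34 and ADORA2A 7.48 ± 0.20. The other ADORA2A probe read 5.94, below the bright level. Of the ATP-gated channels P2RX6 and P2RX4 were bright at 8.84 ± 0.19 and 7.96 ± 0.17, and P2RX1, P2RX5 and P2RX7 were on no array. P2RY2 and P2RY13 were on no array, and no P2Y receptor was bright. The cannabinoid receptor CNR1, of interneuron terminals, read 13.58 ± 0.46, with CTL3 and CTL4 above CTL1 and CTL2, and CNR2, of immune cells, was on 2 arrays.

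Neuropeptide precursors held some of the brightest genes of the lists. Of 54 measured, 44 (81.5%) were detected, 35 (64.8%) bright and 8 on no array, beside 77.6% detected and 58.3% bright of all RefSeq-named genes. After SST and NPY the brightest were CCK at 15.49 ± 0.18 and GRP, a bombesin-like peptide, at 15.43 ± 0.04. APLN read 13.62 ± 0.42, the substance P precursor TAC1 13.29 ± 0.07 and PNOC, the nociceptin precursor, 12.89 ± 0.43. The opioid precursors PENK and PDYN read 10.17 ± 0.24 and 7.63 ± 0.17, and the other PENK probe read 5.03, below the bright level.

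CALCA, the precursor of calcitonin gene-related peptide, read 11.34, 11.53, 13.43 and 13.49, and ADCYAP1, the precursor of PACAP, read 9.34, 9.65, 11.86 and 12.29. In both the signals of CTL3 and CTL4 lay above those of CTL1 and CTL2 with no overlap, so their means describe no single array. CRH, a peptide of hippocampal interneurons in the young brain, read 5.64, 5.93, 6.65 and 5.80, below the bright level. EDN1, PPY, CALCB, GALP, IAPP, EDN3, UCN2 and GCG, mostly peptides of gut, pancreas, vessels and hypothalamus, were on no array. Other precursors known from the same tissues were detected. Of hypothalamic precursors, OXT and PMCH lay at 5.21 ± 0.21 and 5.16 ± 0.28, within the range of genes of other organs. GHRH, GNRH1 and AVP lay above the bright level at 8.79 ± 0.10, 7.76 ± 0.25 and 7.71 ± 0.27 with their brightest probes. Their other probes lay below it, GHRH at 6.21, AVP at 5.82 and GNRH1 at 1.29, the last on no array. The gut hormone genes GAST, GHRL and PYY were also bright, at 11.41 ± 0.74, 7.80 ± 0.65 and 7.56 ± 0.36.

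The machinery for making peptides was read almost in full. All 6 granin and granule genes were detected and bright, with CHGB at 17.55 ± 0.06, VGF at 17.03 ± 0.23, SCG5 at 16.44 ± 0.12, SCG3 at 16.33 ± 0.05, CHGA at 14.06 ± 0.42 and SCG2 at 13.47 ± 0.17. Of 10 processing genes 9 were detected. The carboxypeptidase CPE read 16.69 ± 0.06, the amidating enzyme PAM 15.59 ± 0.19, the convertase PCSK2 13.65 ± 0.13 and PCSK1 10.60 ± 0.35, and PCSK5 was on no array.

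Of 53 peptide receptors 44 were detected and 19 (35.8%) were bright, beside 58.3% of all RefSeq-named genes. The 5 receptors of highest mean were SSTR3, OPRD1, SSTR1, SSTR2 and NPY1R. The place of OPRD1, the δ opioid receptor, differed between arrays, since it lay below the other 4 on CTL1 and CTL2 and above them on CTL3 and CTL4. For SST, the receptor values were SSTR3, of neuronal cilia, at 12.17, 12.11, 11.95 and 12.11, SSTR1 at 11.60 ± 0.28 and SSTR2 at 11.34 ± 0.13, with SSTR4 at 7.56 ± 0.28 and SSTR5 at 6.50 ± 0.28. For NPY, NPY1R read 11.18 ± 0.10, NPY5R 6.84 ± 0.10 and NPY2R 4.28 ± 0.39, and NPY4R was on no array. CCKBR, the brain CCK receptor, read 9.33 ± 0.18.

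The CRH receptor CRHR1 read 11.13 ± 0.17. Of its ligands, CRH lay below the bright level and urocortin, encoded by UCN, above it at 8.09 ± 0.46. OPRD1 read 10.64, 10.79, 12.54 and 12.52 and again split the arrays into CTL1 and CTL2 against CTL3 and CTL4. OPRM1 and OPRK1, the μ and κ receptors, lay at 5.04 ± 0.20 and 5.02 ± 0.14. GALR1, NPFFR1 and NPFFR2 were on no array.

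All 4 neurotrophins and all 5 of their receptors were detected. BDNF, which activity induces in pyramidal neurons, read 11.63, 11.87, 12.15 and 11.53. Its receptor NTRK2 read 15.50, 15.36, 15.34 and 15.42 with its brightest probe and 10.39 with the other. NTRK3 read 15.54 ± 0.17 and its ligand NTF3 9.97 ± 0.19, and NTF4 lay at 4.66 ± 0.37.

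K+ channel genes were the largest channel group. Of 91 measured pore and auxiliary subunits 73 (80.2%) were detected, 54 (59.3%) bright and 14 on no array. These shares lay near those of all RefSeq-named genes, 77.6% detected and 58.3% bright. Kv1 channels sit on axons and dampen firing. KCNA1 read 14.52, 14.43, 14.47 and 14.49, and KCNA4, an inactivating axonal subunit, 11.23 ± 0.13. KCNA2, the usual axonal partner of KCNA1, read 6.05, 5.24, 5.86 and 5.75, below the bright level. KCNA6 read 8.44, 8.28, 11.17 and 10.44, split between the same arrays as above, and KCNA7, of muscle, was on no array.

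KCNB2, a delayed rectifier, read 8.35 ± 0.17. The silent subunits that modify Kv2 channels ranged from KCNV1 and KCNG2 at 11.60 ± 0.16 and 11.60 ± 0.18 to KCNS1 at 5.01 ± 0.17, and KCNV2, of photoreceptors, was on no array. Of the fast Kv3 channels KCNC1 read 8.77 ± 0.62 and KCNC2 6.40 ± 0.09. KCNC4 was not analysed here.

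All 9 genes of the Kv4 complex, which carries dendritic A-type current, were detected and bright. The pores KCND1, KCND2 and KCND3 read 11.14 ± 0.21, 10.12 ± 0.18 and 8.64 ± 0.26. The auxiliary subunits ran from KCNIP1 at 8.14 ± 0.39 to DPP6 at 10.78 ± 0.21. These calls rest on the brightest probe of each gene. The other probe of KCND3 read 4.69, below the bright level, and that of KCNIP2 read 3.74 and was on 2 arrays.

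Kv7 channels carry the M current, and with the KCNE subunits they were detected in 3 of 8 cases. KCNQ3 read 10.08, 10.07, 10.29 and 10.70, above the bright level on each array. KCNE2 read 6.33 ± 0.23. KCNQ1 of heart and ear was on no array, as were KCNE1, KCNE3 and KCNE4, while KCNQ5 was not analysed here. Of the EAG, ERG and ELK channels KCNH1 and KCNH3 read 13.45 ± 0.10 and 12.41 ± 0.08, and KCNH2, the ERG channel, read 9.91 ± 0.79. KCNH5 and KCNH8 were on no array.

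Of the inward rectifiers, which hold the resting potential, 9 of 15 pore subunits were detected and 5 were on no array. The G-protein-gated subunits KCNJ3, KCNJ6 and KCNJ9 read 12.25 ± 0.16, 10.23 ± 0.10 and 8.75 ± 0.11. KCNJ12 and KCNJ4, of the strongly rectifying group, read 10.90 ± 0.04 and 10.72 ± 0.48, whereas KCNJ2 of the same group read 1.47, 1.64, 1.37 and 1.33 and was on no array. The ATP-sensitive pore KCNJ11 and its regulator ABCC8 read 10.03 ± 0.24 and 10.85 ± 0.25, while the vascular pair KCNJ8 and ABCC9 lay at 2.56 ± 0.89 and 4.70 ± 0.20. KCNJ10, the glial channel, was detected at 5.96 ± 0.41, and KCNJ1, KCNJ13 and KCNJ15, of epithelia, were on no array.

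Leak channels of the K2P family were detected in 10 of 12 cases (83.3%), led by KCNK2 at 12.02 ± 0.09 and KCNK12 at 11.59 ± 0.16. KCNK18, of sensory neurons, was on no array. All 7 pores of the Ca- and Na-activated channels were detected, from KCNN1 at 9.86 ± 0.22 and the BK pore KCNMA1 at 9.54 ± 0.07 to KCNN4, of blood cells, at 6.18 ± 0.25. The neuronal BK subunit KCNMB4 read 13.02 ± 0.19, and KCNMB1, of smooth muscle, was on 1 array.

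**Figure D4:**
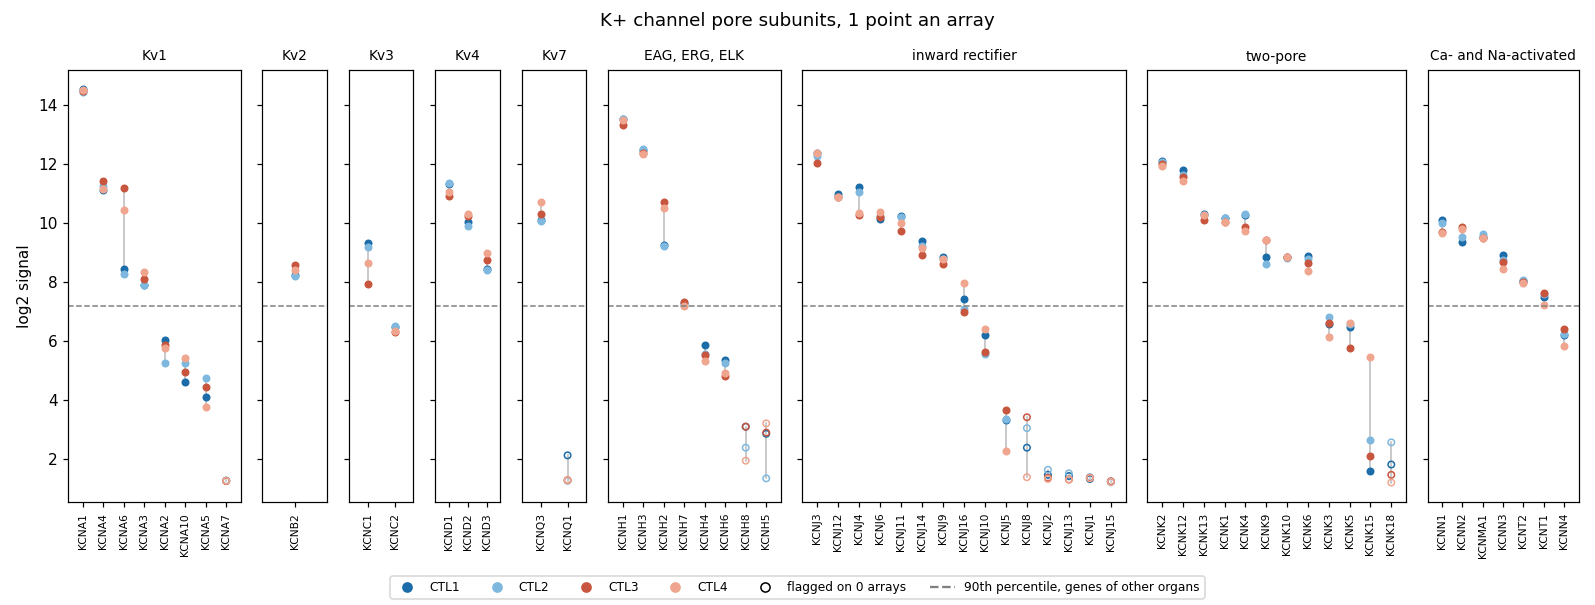
log2 signal of K+ channel pore subunits on each of the 4 vehicle arrays (1 point an array), for the members shown, in order of mean signal within each family, with open points for genes on no array and a dashed line at 7.17. KCNA6 is separated between the arrays, and KCNJ2 lies near 1.45 while KCNJ12 lies near 10.90.

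Of 15 Na+ channel genes 14 were detected and SCN4A, of skeletal muscle, was on no array. SCN2A, of axons, read 13.85, 13.88, 13.87 and 13.97, the embryonic form SCN3A 12.08 ± 0.13 and SCN1A, of interneurons, 9.36, 9.45, 9.31 and 9.30. SCN8A, of the axon initial segment, read 9.86, 9.81, 9.38 and 9.54 with its brightest probe, and its other probe, at 1.61, was on no array. The forms of peripheral neurons and glia, SCN11A, SCN7A, SCN9A and SCN10A, lay between 5.02 and 6.48, in the range of genes of other organs. The β subunit SCN3B read 16.93 ± 0.14, and the leak channel NALCN 12.73 ± 0.15.

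Of 20 Ca2+ channel genes 18 were detected and CACNA1F, of the retina, was on no array. CACNA1B, the N-type pore of presynaptic terminals, read 13.89, 13.92, 13.88 and 14.15 with its brightest probe and 6.34 with the other. CACNA1A, the P/Q-type pore, had 1 probe and read 7.22, 7.27, 6.73 and 6.97. The order of these pores thus depends on the CACNA1B probe. The L-type pores CACNA1C and CACNA1D read 10.66 ± 0.13 and 9.48 ± 0.10, and the T-type pores CACNA1H, CACNA1G and CACNA1I 10.24 ± 0.69, 10.12 ± 0.26 and 6.57 ± 0.19. Other probes read 5.74 for CACNA1C, and 9.12 and 6.29 for CACNA1D. CACNA1S, of skeletal muscle, was detected at 4.43 ± 0.31. Of 10 auxiliary subunits 6 were bright, with CACNB3 at 15.77 ± 0.13 and CACNA2D1, the gabapentin target, at 15.76 ± 0.08. CACNA2D2, CACNG1 and CACNG6 were detected below the bright level, at 6.10 ± 0.21, 5.63 ± 0.10 and 6.62 ± 0.13, and CACNA2D4 was on 1 array.

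The pacemaker channels HCN2 and HCN3 were bright at 14.56 ± 0.12 and 11.05 ± 0.15, and HCN4, known from the sinus node, lay at 5.63 ± 0.44. Of 21 TRP channels 16 (76.2%) were detected and 9 (42.9%) bright, led by TRPC1 at 12.12 ± 0.06, TRPC4 at 11.86 ± 0.06 and TRPV2 at 10.74 ± 0.16. Members known from sensory or epithelial tissue fell on both sides, with TRPC2, TRPM5, TRPV5, TRPV6 and TRPA1 on no array and TRPV1, TRPM1, TRPM6 and TRPM8 detected at 4.28 to 5.93. TRPV4 lay at the bright level, at 6.86, 7.20, 7.51 and 7.19. The acid-sensing channels ASIC2, ASIC1 and ASIC4 were bright at 12.62 ± 0.14, 10.24 ± 0.23 and 7.48 ± 0.17, whereas ASIC3 of sensory neurons and ASIC5 were on no array.

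The cotransporters that set the chloride gradient were both bright with their brightest probes. SLC12A5, which extrudes chloride from mature neurons, read 16.73, 16.69, 16.79 and 16.82, and SLC12A2, which imports it, read 8.84, 8.90, 8.83 and 8.95. The other probe of SLC12A5 read 7.86, and that of SLC12A2 read 5.87, below the bright level. All 9 chloride channel genes were detected, among them CLCN4 at 11.35 ± 0.19 and CLCN3, of endosomes and synaptic vesicles, at 10.92 ± 0.03. Of 17 connexin and pannexin genes 15 (88.2%) were detected and 7 (41.2%) bright. Among them were PANX2 at 13.03 ± 0.15, GJA1 at 12.93 ± 0.40, PANX1 at 12.18 ± 0.10 and the neuronal connexin GJD2 at 10.78 ± 0.11. GJC1 read 9.81, 10.32, 12.02 and 12.60, and PANX3 was on no array.

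Of 22 transmitter transporters 20 (90.9%) were detected and 12 (54.5%) bright, beside 77.6% and 58.3% of all RefSeq-named genes. The plasma membrane glutamate transporters SLC1A3, SLC1A1, SLC1A6 and SLC1A2 read 16.01 ± 0.13, 11.48 ± 0.10, 11.03 ± 0.24 and 10.71 ± 0.38, and the astrocytic GABA transporter SLC6A11 7.27 ± 0.14. The zinc transporter of glutamatergic vesicles, SLC30A3, read 10.59 ± 0.05. The transporters of noradrenaline and serotonin neurons, SLC6A2 and SLC6A4, lay at 5.18 ± 0.26 and 5.07 ± 0.24, and the dopamine transporter SLC6A3 at 2.52 ± 0.80 was on no array.

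The 4 vehicle arrays were alike for most genes and differed strongly for a few. Signals of all probes correlated between arrays at r = 0.989 to 0.995, a description across probes that are not independent. Over 11812 detected genes with a symbol and 4 values, the SD between arrays had a median of 0.156, a 90th percentile of 0.335 and a 99th percentile of 0.745. After each gene's mean was removed, CTL1 correlated with CTL2 at 0.283 and CTL3 with CTL4 at 0.349, while the 4 correlations across these pairs ran from -0.690 to -0.630. Removing the mean of 4 values by itself gives correlations of about -0.333 where arrays share no structure. Within CTL1 and CTL2 the median SD was 0.0805 and within CTL3 and CTL4 it was 0.0755. These are SDs of pairs of arrays and are not on a like footing with the 0.156 over 4 arrays.

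In 62 genes (0.525%) the SD was over 1. Both CTL3 and CTL4 lay above CTL1 and CTL2 in 57 of these (91.9%), beside 16.2% of all 11812 genes, and both lay below in 2, beside 46.6%. The large differences thus mostly ran opposite to the many small ones. The least steady were ABI3, an adaptor of actin regulation, at 8.03, 9.16, 12.91 and 11.68 and MRGPRD, a receptor of sensory neurons, at 7.05, 9.08, 11.76 and 11.32. SNED1, a matrix protein, read 13.70, 11.93, 16.18 and 15.33. RP2 was an exception, with CTL1 alone high at 8.60 and the others at 4.52, 4.35 and 4.36. The others of the 12 included CDK11B, ERGIC2, RPL23A-PS6, NCL-PS1, OR5P66, EDA2R and KDM4C. Annotated pseudogenes were 5 of the 62 (8.06%) and olfactory receptor genes 7 (11.3%), beside 0.33% and 2.09% of the 11812.

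There were 10 listed genes with an SD over 1, namely ADCYAP1, ACTA1, KCNA6, GJC1, HTR3B, CALCA, GLRA1, TRH, OPRD1 and GABRQ. All but TRH had CTL3 and CTL4 above CTL1 and CTL2. TRH was high on CTL3 alone, at 4.06, 4.77, 6.39 and 4.22.

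The pairs of arrays matched pairs of slides. CTL1 and CTL2 were on slides 1 and 3, and CTL3 and CTL4 on slides 2 and 4, and each of the 4 slides also held 1 TTX and 1 BC array. Over the 62 genes, slides 2 and 4 exceeded slides 1 and 3 by a median of 2.13 in the vehicle arrays, by 2.05 in the TTX arrays and by 1.79 in the BC arrays. Both arrays of slides 2 and 4 lay above both of slides 1 and 3 in 56 of the 62 genes within TTX and in 54 within BC, arrays that had no part in choosing the genes. For GABRQ the gap was 1.80 in vehicle, 1.58 in TTX and 1.14 in BC arrays, and for KCNA6 it was 2.44, 1.95 and 1.90. Whether the slides or RNA samples that were shared out over them differed cannot be told apart, since each vehicle sample was on a slide of its own.

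**Figure D5:**
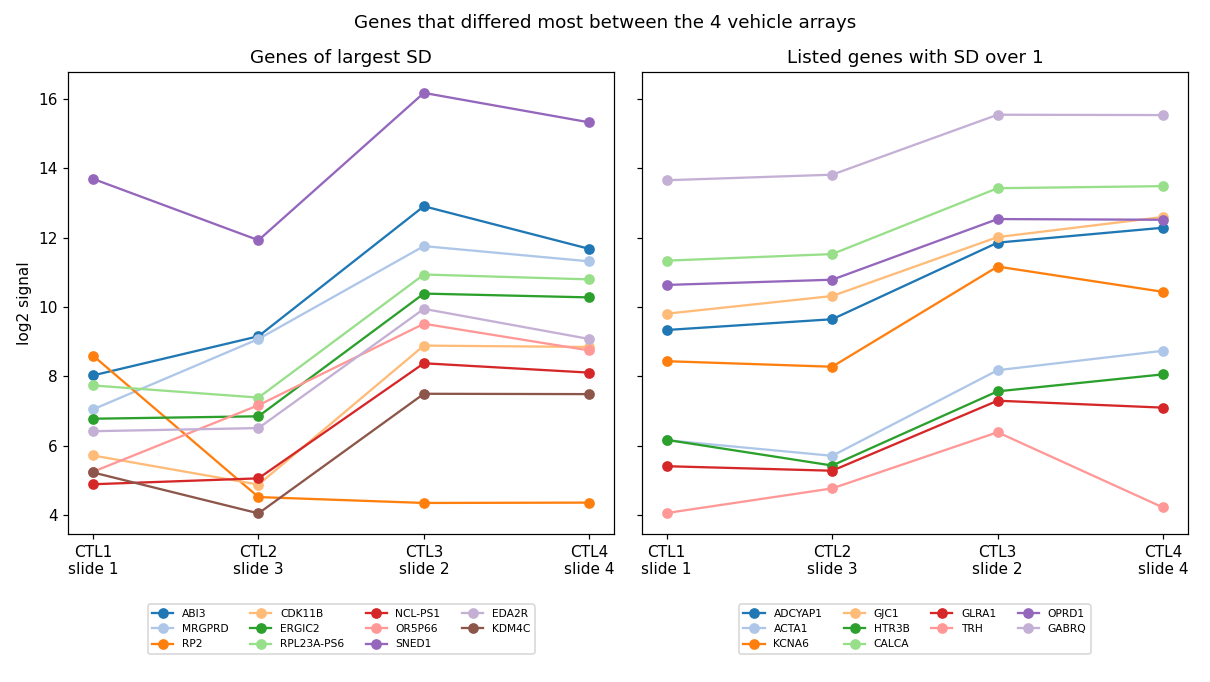
log2 signal on each vehicle array, with its slide, of genes among the 12 of largest SD (left) and of the listed genes with an SD over 1 (right), 1 line a gene. All lines but those of RP2 and TRH are higher on CTL3 and CTL4 than on CTL1 and CTL2.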

How the data were processed

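Cy3-labelled RNA of 12 samples of rat cultures was hybridized to 12 single-color Agilent arrays, 4 for each treatment. The authors deposited scanner intensity files made with Feature Extraction 9.5.1.1, whose processed signal is background-subtracted and detrended within the array, and a table of log2 values, which the methods describe as quantile-normalized and which was used as an alternative. The software marks a spot as well above background from the spread of the array's background.

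Processed signals were taken to log2, outlier spots were left out, and the 12 arrays were quantile-normalized (limma 3.58.1, R 4.3.3; Python 3.11.15, pandas 2.3.3, numpy 2.4.6, matplotlib 3.10.9). Of 41012 probes, 10984 were named through an accession, 5133 by symbol and 3455 by synonym in RefSeq (GRCr8), and 21440 kept the name in the files. Arrays were grouped by their titles. With 1 group and no contrast there was no test, and precision is limited by the 4 arrays. Gene summaries were tested on simulated data. Named genes are members of the lists, the 25 brightest genes and the 12 of largest SD among detected genes. The members and lists were chosen with earlier results of these data known. Alternatives were other detection rules, other background corrections and scalings, the mean of all probes, and leaving out each array; the bright level and pairs of arrays by slide, read from the file headers, were added after the data were seen. TTX and BC contrasts were not analysed here, and values of certain genes are left out.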

Additional observations from a re-analysis of the deposited data

Results flagged for a closer look

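Of 106 sets of 4 values examined, those of genes given array by array, of array summaries and of list medians, 4 (3.77%) held an array that stood apart from the other 3 by more than Dixon's critical value, and chance gives about 1 in 20. The ratio of gap to range was 0.99 for AIF1, where CTL4 read 1.55 and the others 1.26 to 1.27, all below background. It was 0.862 for CACNA1B, where CTL4 read 14.15 beside 13.88 to 13.92. The median of the Kv2 and silent Kv list was 7.95 on CTL3 and 7.72 to 7.74 on the others (0.913), and that of the TRP list was 6.26 on CTL1 and 5.79 to 5.87 on the others (0.83).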

How the results depend on the processing

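No paired analysis was possible because the results come from no test and a single group. The number of RefSeq-named genes detected was 11865, and ran from 11865 to 13105 under other detection rules and the choice of probe by normexp signal. Without 1 array it ran from 11891 to 12016, and the count of listed genes, 546, from 547 to 551. The bright level gave 8920 and 372, and 4 genes of other organs in place of 22. Marking spots by significance alone gave 13105 genes, 597 listed genes and 26 genes of other organs, raised the share of negative control spots from 0.327 to 2.45%, and moved the count of 1 list of 47 by over 1.5 times, the endothelial list, from 3 to 9. The bright level moved 19 of 47 lists by as much. The median percentile of listed genes, 58.5, was 59.0 with normexp, 59.0 with the deposited values, 57.0 with the mean of all probes, 59.0 on CTL1 and CTL2 alone and 58.5 to 59.1 without 1 array. The mean of all probes moved 46 of 655 genes by over 10 percentile points. The median SD, 0.156, was 0.124 with normexp and 0.142 to 0.154 without 1 array. It was 0.0805 on CTL1 and CTL2 alone and 0.0755 on CTL3 and CTL4 alone. These last are SDs of pairs of arrays and are not on a like footing with an SD of 4 arrays. Background sets the limit: signals below about 3.72 were not detected on all arrays.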

Other observations

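Probes on no vehicle array had a median GC content of 40%, and those on 4 arrays 43.3%. Across probes, GC content and mean log2 signal correlated at 0.167, a description over probes of the same 4 arrays.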
